A study of Mus musculus with 34 samples.

Results

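The response of mouse small cell lung cancer (SCLC) cells to interferon gamma (IFNg), in the absence of any inhibitor, was measured by RNA sequencing in 6 of the 34 libraries of the series. The members were chosen by their labels: the 3 libraries of cells kept in DMSO with IFNg and the 3 libraries of cells kept in DMSO alone. All 6 came from a single line, RP-48OVA-LLO190, a murine SCLC line cultured for 10 d. DMSO served as the control for bomedemstat (BOM), a drug against the histone demethylase LSD1 that the study tested in other groups, and both groups compared here received it. IFNg was present for the last 48 h in 1 group and not in the other, and its dose is not given in the sources used here. The same table holds 2 libraries of cells treated with BOM and 2 of cells treated with BOM and IFNg, which shared the fit and were used for a comparison of the response. The labels do not say whether libraries of a group came from separate cultures, so each p-value measures the spread between these libraries, which may be technical.

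IFNg is a cytokine of T and NK cells that binds a receptor of the chains IFNGR1 and IFNGR2. The kinases JAK1 and JAK2 on these chains activate latent transcription factors, which bind the GAS element in promoters, among them that of Irf1. IRF1 and other interferon regulatory factors then act on the ISRE element of a wider set of genes, whose best-known products present antigens on MHC molecules. SCLC is a neuroendocrine tumor that is known for low MHC class I expression.

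Promoters of 6 genes of the pathway are shown first, and all 6 genes rose in these cells. They were taken from RefSeq windows on GRCm38.p6 and are written 5′ to 3′ along the strand of the gene. Capitals mark matches, on either strand, to 3 patterns: the GAS pattern TTCNNNGAA, the ISRE core (GAAA, any 2 bases and GAAA again, or TTTC in both places on the other strand) and the Y box CCAAT of MHC promoters, read as ATTGG on the other strand. Each of the first 5 sequences is the 180 bases before the start site: Irf1, a transcription factor, chr11:53769834-53770013, plus strand. Irf8, a transcription factor, lies at chr8:120736178-120736357, plus strand. Socs1, a feedback inhibitor of the kinases, lies at chr16:10785537-10785716, minus strand. Igtp, a GTPase of cell-intrinsic defense, lies at chr11:58199376-58199555, plus strand, and B2m, the light chain of MHC class I, at chr2:122147507-122147686, plus strand. The last is the whole 225-base segment between the RefSeq start sites of Tap1 and Psmb9 (chr17:34187331-34187555, written along the plus strand, that of Tap1). These genes, of peptide transport and peptide cleavage, are read in opposite directions. In the GENCODE M21 models used for gene positions below, Psmb9 reaches past the start of Tap1, so the segment holds for the RefSeq starts alone.
Irf1: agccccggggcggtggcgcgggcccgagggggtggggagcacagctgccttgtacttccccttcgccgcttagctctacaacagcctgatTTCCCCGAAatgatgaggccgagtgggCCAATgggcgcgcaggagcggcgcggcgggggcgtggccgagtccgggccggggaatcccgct
Irf8: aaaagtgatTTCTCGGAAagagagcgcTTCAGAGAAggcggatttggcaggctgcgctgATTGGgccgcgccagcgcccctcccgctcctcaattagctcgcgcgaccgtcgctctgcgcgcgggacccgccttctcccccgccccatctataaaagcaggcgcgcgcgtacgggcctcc
Socs1: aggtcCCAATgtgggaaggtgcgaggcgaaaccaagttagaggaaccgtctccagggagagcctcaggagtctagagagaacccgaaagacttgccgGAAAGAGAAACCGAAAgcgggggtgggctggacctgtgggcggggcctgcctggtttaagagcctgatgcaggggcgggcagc
Igtp: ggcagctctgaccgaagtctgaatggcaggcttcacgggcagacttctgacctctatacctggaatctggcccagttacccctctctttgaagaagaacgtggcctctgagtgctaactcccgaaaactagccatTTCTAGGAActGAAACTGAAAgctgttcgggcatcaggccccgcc
B2m: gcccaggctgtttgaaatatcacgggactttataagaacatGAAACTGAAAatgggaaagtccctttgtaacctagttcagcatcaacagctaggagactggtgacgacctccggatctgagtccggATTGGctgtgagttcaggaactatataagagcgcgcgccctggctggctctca
Tap1: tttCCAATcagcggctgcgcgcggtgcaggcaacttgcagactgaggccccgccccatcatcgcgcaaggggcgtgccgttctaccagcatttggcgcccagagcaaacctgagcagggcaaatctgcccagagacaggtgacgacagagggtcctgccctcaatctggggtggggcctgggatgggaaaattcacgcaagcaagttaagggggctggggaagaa
The Irf1 sequence held a GAS match from 90 to 82 bases before the start site, and the Irf8 sequence held 2, from 171 to 163 and from 153 to 145. The Socs1 sequence held 2 ISRE matches that share bases, from 83 to 74 and from 77 to 68. In the Igtp sequence a GAS match (45 to 37) lay beside an ISRE match (34 to 25). The B2m sequence held an ISRE match from 139 to 130, and the segment between Tap1 and Psmb9 held a CCAAT match but neither of the other patterns. Gbp2 and H2-K1, which also rose, were searched over 180 bases too and are not printed. Gbp2 held an ISRE match from 59 to 50, and H2-K1 only a CCAAT match, from 16 to 12. Of 32851 promoter windows of the mouse genome, which run from 250 bases before to 50 after the start, 8.3% held a GAS match, 3.44% an ISRE match and 37.4% a CCAAT match. A match is a description of letters and not of a bound site. Only 73.7% of the genes that rose had a window, so no share over them is given.

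The 6 libraries held between 5896627 and 7163611 counts. The label was checked on neuroendocrine genes, which were abundant: Insm1 was at 1404 ± 152 CPM (SD, n = 3) in DMSO, Uchl1 at 300 ± 8.06 and Chga at 291 ± 35.0. CPM are counts divided by the size of their library, after scaling between libraries by the TMM factors of edgeR, in the usual CPM unit. Markers of T and NK cells and of leukocytes were low or at 0. None of 9 T and NK cell markers passed the filter on low counts, and Cd3d, Cd3g, Nkg7 and Ncr1 were at 0 counts in all 6 libraries. The others had some counts: Cd4 had 20 over the DMSO group and 7 with IFNg, and Cd2 20 and 14. Cd8a had 12 and 14, Cd3e 4 and 2 and Klrb1c 1 and 0. The leukocyte gene Ptprc had 6 counts over the DMSO group and 0 with IFNg, and Itgam, Adgre1, Lyz2, S100a8 and S100a9 had none in either. Summed over the tested members, 2 of 11 pan-leukocyte and myeloid markers reached 2.50 to 6.34 CPM in DMSO and 2.46 to 4.76 with IFNg, and 1 of 4 B cell markers 0.336 to 1.11 and 0.793 to 1.16. For fibroblasts 6 of 9 markers summed to 17.0 to 21.3 CPM and 13.4 to 16.9, for endothelium 3 of 6 to 15.4 to 18.5 and 19.9 to 24.9, and for other epithelium 4 of 9 to 10.3 to 11.6 and 9.37 to 12.2. No marker of these lists was called, except 1 endothelial marker in a blocked fit of the 6 libraries. Outside the lists, and chosen after their values were seen, Mpeg1, known from macrophages, was at 2.23, 3.86 and 3.34 CPM and then at 11.2, 16.5 and 19.2 (2.32, SE 0.27, adjusted p = 1.39e-05). Plvap, known from endothelium, rose by 0.74 (SE 0.16, adjusted p = 0.0154), a call lost without DMSO library 2 or 3 or IFNg library 1 (0.0849 to 0.0984). The part of other cells in the results was not tested. The ribosomal-type transcript Gm26917 took 11.7 to 15.8% of the counts.

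Each of 15230 genes that passed the filter, of 30351 in the table, was tested with the quasi-likelihood test of edgeR, and a gene was called at a Benjamini-Hochberg adjusted p under 0.05 over all of them. IFNg changed 345 genes (2.27% of those tested), of which 297 were higher (1.95%) and 48 lower (0.315%). The response was lopsided in size as well: 186 genes rose at least 2-fold (1.22%) and 4 fell at least 2-fold (0.0263%). The median log2 change was 1.55 for the genes that rose and -0.54 for those that fell, beside -0.01 for all genes tested. Groups did not overlap for 296 of the 297 and for all 48 called genes. Of all tested genes 7.68% lay apart upward and 6.32% downward. In bulk RNA, a change in the RNA of every cell and a change in the share of cells that respond cannot be told apart.

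The genes that rose spanned a wide range of DMSO levels. Of the 297, 154 had a DMSO mean of 10 CPM or more, 56 one between 1 and 10 CPM and 87 one under 1 CPM. Among the last, 26 had no count in any DMSO library and 22 more had 1 to 3 counts over the group; such genes passed the filter on low counts through other groups, so their share of the calls is a description. All 297 together made up 0.947 ± 0.00935% of the normalized counts in DMSO and 2.48 ± 0.0286% with IFNg (SD, n = 3 each). Over 237 risen genes with at least 10 CPM with IFNg, the median coefficient of variation of the 3 IFNg libraries was 8.56% and the highest 33.3%. A call favors genes with little spread, so these values do not measure how close the libraries were. Where a gene had 0 counts in DMSO, only a lower limit of its fold is given below, computed as if the DMSO group had 3 counts in all. Where it had 1 to 3, the ratio is given with a 95% interval. Both cover counting error only. The SE printed with a log2 change is that change, without its sign, divided by the square root of the test's F statistic. For genes with few DMSO counts such an SE can be smaller than counting error alone.

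**Figure D1:**
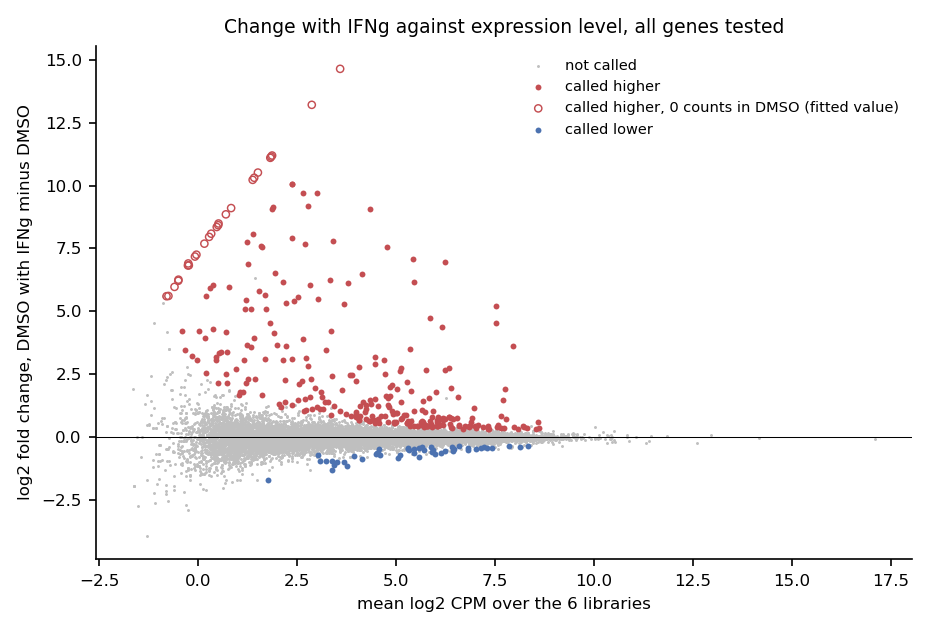
Change with IFNg (log2 fold change, vertical axis) against the mean log2 CPM over the 6 libraries for all 15230 genes tested. Red points are the 297 genes called higher, open red circles those with 0 counts in DMSO, whose fitted values depend on the prior count, and blue points the 48 called lower; 186 red symbols stand at 1 or above on the vertical axis and 4 blue points at -1 or below.

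The number of calls moved with a block on the replicate number and with single libraries. Deviations from the group means correlated at 0.48 between DMSO and IFNg libraries of number 1, but at 0.148 and 0.125 for numbers 2 and 3. DMSO libraries 2 and 3 correlated more with IFNg libraries 3 and 2 (0.169 and 0.272), so a pairing by number is uncertain. With the number as a block 478 genes were called, 361 higher and 117 lower, in place of 297 and 48. In a blocked fit of the 6 libraries alone the calls were 436 higher and 202 lower. Leaving out 1 library gave 218 rises (without DMSO library 2) to 296. The number of falls was 25 without DMSO library 2, 22 without IFNg library 3, 30 without IFNg library 2 and 81 without IFNg library 1.

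The receptor chains themselves did not pass the test. Ifngr1 was at 15.0, 15.1 and 14.1 CPM in DMSO and at 13.4, 13.9 and 13.7 with IFNg, a log2 change of -0.11 (SE 0.16, adjusted p = 0.946). Ifngr2 was at 6.96, 6.55 and 7.22 CPM and then at 9.37, 7.61 and 7.94 (0.27, SE 0.19, adjusted p = 0.836). For both genes the groups lay just apart, by less than the test resolves. The kinase gene Jak1 rose slightly, from 80.7, 87.2 and 75.9 to 111, 103 and 124 CPM, by 0.47 (SE 0.10, adjusted p = 0.0165), and lost its call without DMSO library 3 or IFNg library 3 (adjusted p = 0.105 and 0.132). Jak2 had 45.9, 54.4 and 49.5 CPM in DMSO and 65.0, 61.0 and 70.5 with IFNg (0.39, SE 0.10, adjusted p = 0.0537). With the replicate block Jak2 was called (adjusted p = 0.0224 over 10 libraries and 0.00608 over 6).

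Genes of the STAT family rose in part. Stat2, a subunit of the type I interferon complex, rose by 1.97 (SE 0.10) from 41.8 ± 2.06 to 164 ± 11.7 CPM, and Stat3 by 1.47 (SE 0.08) from 126 ± 6.09 to 347 ± 14.9 CPM (SD, n = 3). Stat5a rose by 0.56 (SE 0.13, adjusted p = 0.0198). That call was lost without DMSO library 2 or 3, or without IFNg library 1 or 3 (adjusted p = 0.073 to 0.142). In all, 12 receptor, JAK and STAT genes were listed, 10 were tested and 5 rose, with a median of 0.43, and none fell. Without DMSO library 3 or IFNg library 3 the count was 3.

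Feedback inhibitors rose in part. Of 17 tested, 4 rose, and the list's median of 0.06 was near that of all genes. Usp18, a protease that removes ISG15 and dampens interferon receptors, went from 1.11, 0.336 and 0.176 CPM to 10.1, 9.99 and 7.78 (3.96, SE 0.38, adjusted p = 1.24e-06). Socs1, the inhibitor of JAK kinases whose promoter is shown above, went from 0.417, 1.68 and 0.88 CPM to 7.68, 8.88 and 9.1 (3.12, SE 0.36, adjusted p = 1.33e-05). For both, every IFNg library lay above every DMSO library, although the DMSO values rested on 11 and 18 counts over the group. Socs2 rose by 0.57 (SE 0.10, adjusted p = 0.00209). Socs3 rose by 0.96 (SE 0.22, adjusted p = 0.0271), with IFNg library 1 at 31.0 CPM below the others at 49.1 and 55.3, and lost its call when any 1 of the DMSO libraries or IFNg library 2 or 3 was left out (adjusted p = 0.0717 to 0.195) and by DESeq2 (0.0927).

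Among interferon regulatory factors, 5 of 11 tested members rose and none fell, with a median of 0.21. Irf1, a direct target of the pathway (chr11:53770014-53778374 on mm10), was at 15.9, 17.1 and 13.9 CPM in DMSO and at 257, 384 and 348 with IFNg (4.39, SE 0.16, adjusted p = 1.06e-12). IFNg library 1 was the lowest of its group but still far above DMSO. Irf8, a factor best known from myeloid cells (chr8:120736358-120756694), had 1 count over the DMSO group and 1447 with IFNg. Its 83.2, 68.0 and 78.8 CPM with IFNg were 1444 times the DMSO level, with a counting interval of 259 to 57062 (adjusted p = 2.86e-13). Irf9, the DNA-binding part of the type I interferon complex, rose by 2.20 (SE 0.11), and Irf2, known as a repressor and an activator of ISRE genes, by 0.61 (SE 0.09, adjusted p = 0.000479). Irf7, the amplifier of type I interferon genes, rose by 1.09 (SE 0.27, adjusted p = 0.0435), and leaving out DMSO library 1 or 2 or any 1 of the IFNg libraries ended this call (adjusted p = 0.0656 to 0.207), as did leaving out either BOM library with IFNg (0.0578 and 0.0600) and a fit of the 6 libraries alone (0.0760). Batf2, an IRF1 partner outside the lists, rose from 0.261 ± 0.252 to 9.68 ± 1.22 CPM (5.09, SE 0.43).

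**Figure D2:**
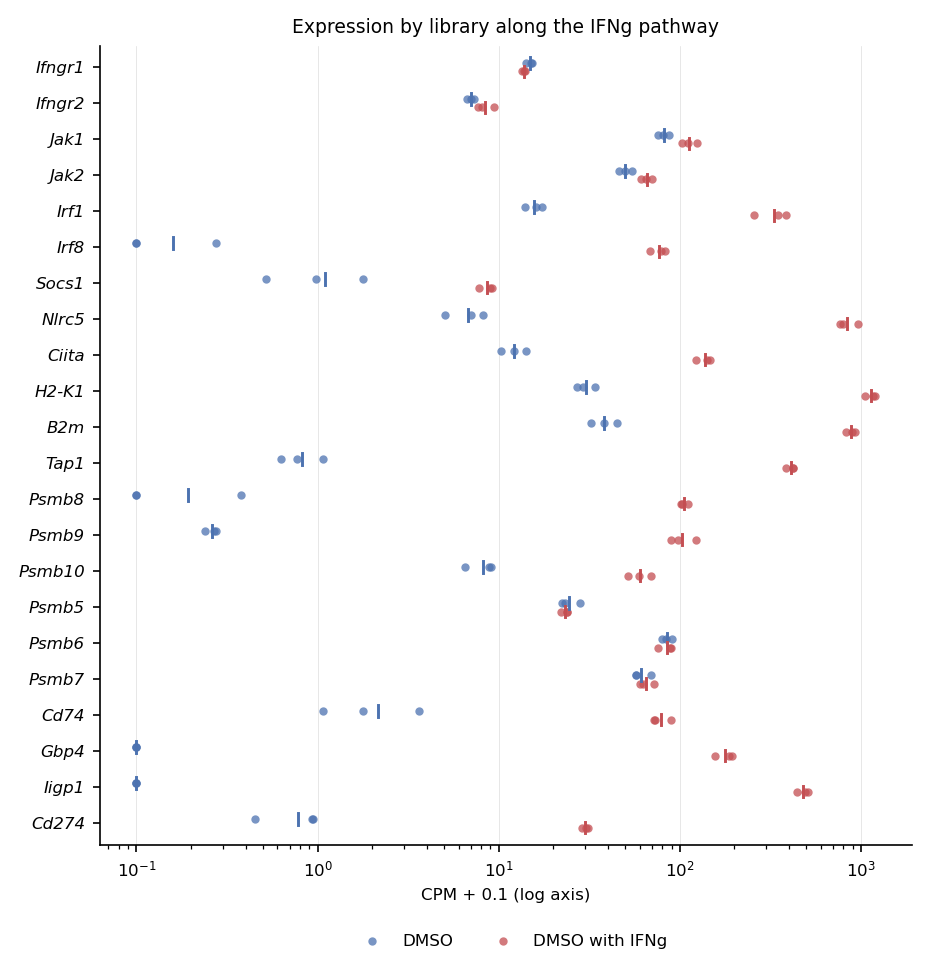
Expression in each library along the pathway. Points are CPM + 0.1 on a log axis, with DMSO in blue and DMSO with IFNg in red, and short bars are the means of 3 libraries; Ifngr1, Ifngr2, Jak2 and Psmb5, Psmb6 and Psmb7 show no call, while Irf1, Nlrc5, H2-K1 and B2m move from between 4.93 and 44.8 CPM to between 257 and 1196 CPM.

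The transactivators of MHC genes rose, and the DNA-binding factors they act through did not pass the test. Nlrc5, the transactivator of MHC class I (chr8:94434356-94527272), went from 6.96, 8.06 and 4.93 CPM to 794, 960 and 770 CPM (6.97, SE 0.14, adjusted p = 4.48e-16). Ciita, the transactivator of MHC class II (chr16:10480059-10528418), went from 14.1, 12.1 and 10.2 CPM to 147, 141 and 123 (3.49, SE 0.12, adjusted p = 3.82e-13). In each case the lowest IFNg library was far above the highest DMSO library. The other 7 of the 9 members, mostly subunits of the RFX and NF-Y complexes, were not called, and the list's median was 0.03. Rfx5, at 31.5 ± 1.90 and 41.5 ± 4.37 CPM, had a log2 change of 0.40 (SE 0.12, adjusted p = 0.147) and was called only in the blocked fit of the 6 libraries (adjusted p = 0.0300).

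All 3 classical MHC class I genes in the table rose. H2-K1, a heavy chain (chr17:33996017-34000347), was at 34.1, 29.2 and 27.1 CPM in DMSO and at 1166, 1196 and 1050 with IFNg (5.23, SE 0.13, adjusted p = 6.06e-15). B2m, the light chain of all class I molecules (chr2:122147686-122153083), went from 44.8, 37.8 and 32.2 CPM to 927, 831 and 892 (4.52, SE 0.13, adjusted p = 7.25e-14). H2-D1, the other heavy chain, went from 78.2, 63.8 and 68.0 CPM to 839, 905 and 871 (3.64, SE 0.09, adjusted p = 7.95e-15). The order of the heavy chains differed between the groups: per length, as RPKM (CPM divided by the gene's length in kb), H2-D1 was at 27.1 and H2-K1 at 10.3 in DMSO, and they were at 338 and 387 with IFNg. By the deposited lengths B2m was the highest in both, at 44.5 and 1027 RPKM.

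Of 27 non-classical class I genes listed, 10 were tested and 6 rose, with a median fitted log2 change of 3.15 (3.12 with genes at 0 in DMSO set to their bound). Reads of these near-identical genes can be split between copies, so values of single members are uncertain. H2-Q4 went from 0.278, 0.336 and 0 CPM to 61.1, 55.2 and 51.6 (7.92, SE 0.30). H2-T23, whose product is the ligand of NKG2A receptors on NK cells, rose by 3.19 (SE 0.19), and H2-M3, which presents bacterial formyl peptides, by 3.11 (SE 0.29). H2-Q7 had 0 counts in DMSO and 29.3, 24.4 and 17.9 CPM after IFNg, at least 150-fold more. H2-Q6 was at least 54.6-fold and H2-T10 at least 8.71-fold higher. H2-T22 was at 7.59 ± 2.30 and 6.74 ± 0.486 CPM and was not called.

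Of the peptide transport and loading genes, the transporter subunits and 3 others rose. Tap1, a subunit of the peptide transporter (chr17:34187553-34197225), went from 0.974, 0.672 and 0.528 CPM to 423, 421 and 385 (9.07, SE 0.15, adjusted p = 3.60e-17). Tap2, the other subunit, went from 0.139, 1.85 and 0.528 CPM to 48.4, 58.0 and 54.5 (6.03, SE 0.30, adjusted p = 1.03e-10). Both were close to the limit of detection without IFNg, at 14 and 15 counts over the group, so the SE of both changes can be smaller than counting error. Tapbp (tapasin, which holds class I molecules at the transporter), Tapbpl (its relative) and Erap1 (which trims peptides) rose by 2.75, 2.77 and 2.75 (SE 0.11, 0.18 and 0.13). The general chaperones of the pathway were already abundant and did not pass the test: Calr was at 451 ± 47.8 and 491 ± 55.2 CPM, and Pdia3 at 319 ± 19.5 and 343 ± 36.3. So 5 of 8 tested members rose, with a median of 2.75.

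The catalytic subunits that IFNg can exchange in the proteasome rose, and the constitutive ones did not pass the test. In DMSO, Psmb8 had 2 counts over the group and Psmb9 (chr17:34181987-34187764) 3. With IFNg Psmb8 was at 103, 110 and 101 CPM, 986 times its DMSO level (counting interval 273 to 8145, adjusted p = 3.25e-14). Psmb9 was at 122, 89.2 and 97.0 CPM, 647 times its DMSO level (221 to 3138). Psmb10, the remaining inducible subunit, went from 6.4, 8.73 and 8.98 CPM to 51.4, 69.0 and 59.3 (2.91, SE 0.15). Per length, Psmb8 reached 31.0 RPKM beside 25.7 for Psmb5, the constitutive subunit whose place it takes, which was at 27.2 in DMSO. Psmb9 reached 28.1 RPKM beside 45.2 for its counterpart Psmb6, and Psmb10 35.1 beside 18.9 for Psmb7. The deposited lengths of Psmb8 and Psmb9 are 3381 and 3660 bases. Whether such lengths match the transcripts in these cells was not tested, so which subunit of a pair is higher is uncertain. Psmb5, Psmb6 and Psmb7 had overlapping groups and log2 changes of -0.08, 0.00 and 0.09 (SE 0.14, 0.09 and 0.11, adjusted p = 0.957, 0.998 and 0.937). Gene models of Psmb9 and Tap1 overlap at their starts, and the kit does not mark strand, so reads there could fall to either.

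Psme1 and Psme2, the subunits of the PA28 cap, rose by 1.82 and 1.51 (SE 0.11 and 0.13). Pomp, the assembly factor, was at 34.9 ± 4.72 and 44.6 ± 4.48 CPM (0.36, SE 0.13, adjusted p = 0.259) and was called only in the blocked fit of the 6 libraries (adjusted p = 0.0419). The inducible list thus had 5 of 6 tested members higher, with a median of 2.36. Among 33 constitutive proteasome genes none was called, beside 2.27% of all genes tested, so the count is near that share. The median was 0.09, with log2 changes from -0.08 to 0.32, and 28 of the 33 lay above 0. By voom, without a filter, in either blocked fit, or without IFNg library 1, 1 of the 33 was called higher.

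MHC class II genes, which lymphoid and myeloid cells express and many other cells do only after IFNg, mostly rose from low levels. Cd74, the invariant chain, went from 0.974, 1.68 and 3.52 CPM to 89.7, 72.8 and 72.2 (5.30, SE 0.23, adjusted p = 1.66e-11). H2-Aa and H2-Eb1, chains of the I-A and I-E molecules, had 1 and 2 counts over the DMSO group and 295 and 447 with IFNg, or 294 times (counting interval 52.4 to 11664) and 223 times (61.4 to 1847). H2-Ab1 had 0 counts in DMSO and 26.6, 16.8 and 24.3 CPM after IFNg, at least 142-fold more. H2-DMa, a chain of the peptide exchanger, rose by 2.24 (SE 0.24), and H2-DMb1 was at least 17.9-fold higher. Of 13 genes listed, 7 were tested and 6 rose, with a median fitted change of 7.25 (5.30 with bounds). Levels stayed below those of class I: summed over the tested members, class II genes were at 18.1 to 26.9 CPM in DMSO and 163 to 191 CPM with IFNg. The 3 classical class I genes were at 127 to 157 CPM and 2812 to 2932 CPM. Class II sums include the tested member that was not called, whose log2 change was 0.07.

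Outside antigen presentation, every tested gene of the guanylate-binding proteins and immunity-related GTPases rose, beside 1.95% of all genes tested. These GTPases attack intracellular microbes. Of the tested genes, 4 of the first family and 6 of the second had 0 counts in DMSO. Such genes passed the filter on low counts through other groups, so these shares are a description. Copies in these families, and in the OAS and Apol families below, are close in sequence, so the split of reads between members is uncertain. All 10 tested guanylate-binding protein genes rose, of 11 listed, and Gbp2b, which was not tested, had 0 counts in both groups. The summed level of the 10 went from 5.04 to 6.26 CPM over the DMSO libraries to 1001 to 1105 CPM with IFNg. Gbp4 (chr5:105115767-105139586) had no count in DMSO and 155, 187 and 193 CPM after IFNg, at least 1119-fold more. Gbp7 went from 2.37, 1.34 and 1.76 CPM to 393, 311 and 359 (7.56, SE 0.15, adjusted p = 4.48e-16), and Gbp2 from 0.617 ± 0.441 to 136 ± 8.93 CPM (7.81, SE 0.24). Gbp3 had 3 counts over the DMSO group and was 932 times as high with IFNg (318 to 4520). Gbp8 changed least, by 3.06 (SE 0.51, adjusted p = 0.00124). Gbp10 had 0 counts in DMSO and was at least 268-fold higher. The median fitted change was 7.75 (6.91 with bounds).

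All 12 tested immunity-related GTPase genes rose too, of 15 listed, from a summed 7.92 to 12.4 CPM to 1664 to 1818 CPM. Below the filter, Irgc1 had 1 count in DMSO and 2 with IFNg, and 9930111J21Rik1 had 0 and 21. Iigp1 had 0 counts in each DMSO library and 489, 445 and 508 CPM after IFNg, at least 3015-fold more, the highest bound of any gene in the table that had no count in DMSO. Igtp, whose promoter is shown above, went from 5.01, 3.86 and 1.94 CPM to 502, 519 and 508 (7.10, SE 0.18, adjusted p = 1.22e-14). Irgm1 and Irgm2, the regulatory members of the family, rose by 6.16 and 6.50 (SE 0.20 and 0.18). Ifi47 had 1 count in DMSO and 1443 with IFNg. Tgtp1 and Tgtp2, near-identical copies, were at least 65.1-fold and 173-fold higher. The neighbors of Iigp1, F830016B08Rik and Gm4841, had 0 counts in DMSO and were at least 277-fold and 260-fold higher. The median fitted change was 8.57 (7.27 with bounds).

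Genes best known from the type I interferon response rose less evenly. Of 35 listed, 29 were tested and 23 rose, with a median of 2.52, and none fell. Parp14, a mono-ADP-ribosyltransferase, rose the most of those with counts in all DMSO libraries, from 0.417, 0.336 and 0.176 CPM to 62.8, 70.5 and 76.0 (7.69, SE 0.26). Bst2 (tetherin) rose by 6.16 (SE 0.35), Rsad2 (viperin) by 3.65 (SE 0.29) and Mx1 by 3.61 (SE 0.27), the last 2 only to 12.3 ± 1.07 and 14.6 ± 2.64 CPM. Isg15, the ubiquitin-like modifier, had 2 counts in DMSO and 26 with IFNg (13.0 times, 3.25 to 113, adjusted p = 0.0406), and the call was lost by DESeq2 (adjusted p = 0.0625) and without DMSO library 1 or 3, IFNg library 2 or 3 or either BOM library with IFNg (adjusted p = 0.0619 to 0.166). Its conjugating enzymes were well above it: Uba7 rose by 5.50 (SE 0.23) to 51.0 ± 4.40 CPM and Ube2l6 by 2.45 (SE 0.21) to 24.2 ± 0.759 CPM. Of 10 tested genes of ubiquitin-like and ubiquitin pathways 9 rose, with a median of 2.19. The Ifit genes named here were not called: Ifit1 had 4 counts in DMSO and 24 with IFNg (2.49, SE 0.69, adjusted p = 0.0841, called without a filter and without IFNg library 1), and Ifit3 had 7 and 5.

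Sensors of foreign nucleic acid and the OAS family showed the same mixture of levels. Zbp1, a sensor of Z-form nucleic acid, went from 0.557, 0.504 and 0.704 CPM to 24.9, 25.5 and 22.2 (5.33, SE 0.25, adjusted p = 5.51e-11). The RNA helicases Ifih1 (MDA5) and Ddx58 (RIG-I) rose by 2.48 and 2.28 (SE 0.14 and 0.31). The kinase gene Eif2ak2 (PKR) rose by 1.03 (SE 0.10). In all 8 of 13 tested sensor genes rose, with a median of 0.75. Oasl2 had 2 counts in DMSO and 23.6, 23.6 and 25.0 CPM with IFNg, 226 times as high (62.3 to 1876). Of 13 OAS family genes listed, 8 were tested and 7 rose, with a median of 3.92 (3.36 with bounds). In the apolipoprotein L family 6 of 7 tested genes rose, with a median of 6.04 (4.52 with bounds), among them Apol6, from 0.792 ± 0.840 to 35.9 ± 3.05 CPM (5.55, SE 0.34). In the TRIM and PML list 4 of 7 tested genes rose, with a median of 0.87, among them Trim21, an antibody receptor of the cytosol, from 0.412 ± 0.206 to 15.3 ± 1.48 CPM (5.11, SE 0.36). No gene was called of 3 tested Schlafen genes, with a median of -0.29. Of the PYHIN family none of 15 listed genes passed the filter, and Aim2, its DNA sensor, had 9 counts in DMSO and 3 with IFNg.

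**Figure D3:**
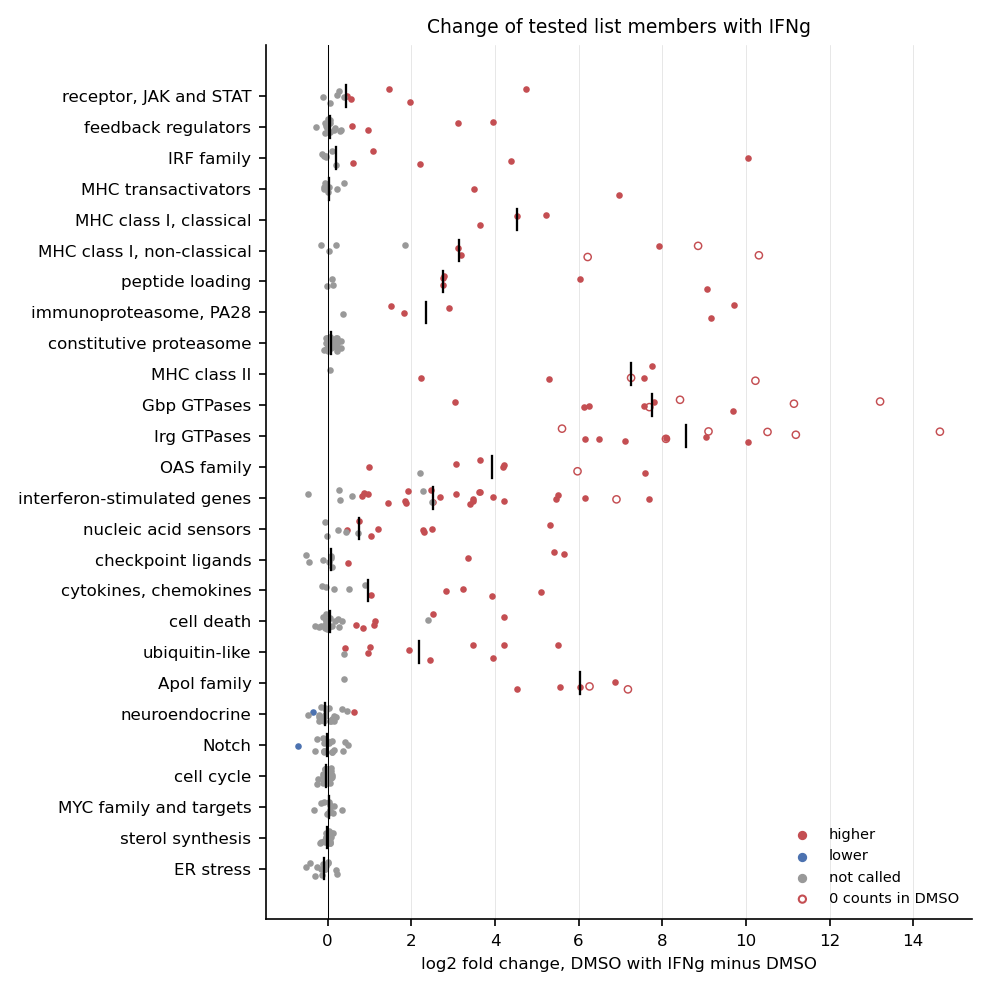
Log2 fold change with IFNg of every tested member of 26 gene lists. Red points rose, blue points fell, grey points were not called, open circles had 0 counts in DMSO and carry fitted values, and black bars are list medians; the Gbp and Irg lists have medians of 7.75 and 8.57, and the neuroendocrine, Notch, cell cycle, MYC, sterol and ER stress lists lie around 0.

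Ligands that tune T cells and macrophages rose in a few cases. Cd274, which encodes PD-L1, the ligand of PD-1 (chr19:29367455-29388095), went from 0.835, 0.84 and 0.352 CPM to 30.9, 28.7 and 30.1 (5.40, SE 0.28, adjusted p = 1.74e-10). Lgals9, which encodes galectin-9, a ligand of TIM-3, went from 0.417, 0.336 and 0.176 CPM to 15.4, 16.8 and 18.5 (5.65, SE 0.34, adjusted p = 1.61e-09). Both had non-overlapping groups with little spread under IFNg. Tnfrsf14 (HVEM) rose by 3.36 (SE 0.64, adjusted p = 0.00489). Cd47, the ligand that restrains macrophages, was already at 163 ± 9.74 CPM and rose by 0.49 (SE 0.12, adjusted p = 0.0376), a call that ended when any 1 of the DMSO libraries or IFNg library 1 or 3 was left out (adjusted p = 0.0567 to 0.272). Of 18 genes listed 11 were tested and 4 rose, with a median of 0.08. Pdcd1lg2, the gene of the other PD-1 ligand, had 0 counts in DMSO and 2 with IFNg.

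Chemokines for T cells stayed low. Cxcl10 had 3 counts over the DMSO group and 51 with IFNg, at 1.54, 2.85 and 3.81 CPM (17.0 times, 5.49 to 85.0, adjusted p = 0.00581). Cxcl9 had 0 and 22 counts, Cxcl11 0 and 2, and Ccl5 23 and 16, and these 3 did not pass the filter. Other secreted or receptor genes of the list reached higher levels. Tnfsf10, which encodes the death ligand TRAIL, went from 0.339 ± 0.443 to 11.5 ± 1.20 CPM (5.09, SE 0.47). Csf1, the growth factor of macrophages, rose by 2.83 (SE 0.32), with 13.5, 16.3 and 21.7 CPM in the IFNg libraries. Il15ra, the chain that presents IL-15, rose by 1.03 (SE 0.18). Of 25 listed, 10 were tested and 5 rose, with a median of 0.96; in a fit of the 6 libraries alone, where fewer genes were tested, the count was 3, with or without the block.

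Cell death genes changed in a minority of cases. Of 25 tested, 6 rose and none fell, with a median of 0.06. Mlkl, the effector of necroptosis, went from 13.8, 11.1 and 13.2 CPM to 23.2, 32.3 and 28.0 (1.13, SE 0.15, adjusted p = 9.39e-05). Casp1, the inflammatory caspase, had 2 and 44 counts (21.9 times, 5.73 to 187), and Gsdmd, the pore protein it cleaves, rose by 2.51 (SE 0.48, adjusted p = 0.00496). Cflar, an inhibitor of caspase-8, rose by 0.83 (SE 0.12). Ripk3, the kinase upstream of MLKL, and Fas had 0 counts in all 6 libraries. The complement gene C4b (chr17:34728380-34743882) had 1 count in DMSO and 43.6, 37.9 and 39.2 CPM with IFNg, 758 times as high (136 to 29989). Wars, the tryptophanyl-tRNA synthetase, rose by 1.58 (SE 0.12) from 54.4 ± 3.90 to 163 ± 24.6 CPM, while Ido1, which breaks tryptophan down, had 0 counts in every library. Nampt, an enzyme of NAD synthesis in the same list, rose by 0.52 (SE 0.11, adjusted p = 0.0120) and was not called without DMSO library 2 or 3 or IFNg library 3 (adjusted p = 0.0501 to 0.0844). In the complement and adhesion list 1 of 3 tested genes rose (median 1.71), and in the tryptophan and metabolism list 2 of 4 (median 0.21).

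Of the 297 genes that rose, 132 stood in the 25 pathway lists, which held 260 tested genes, and 165 did not. Those with the lowest p outside the lists included Rnf19b, a ubiquitin ligase known from NK cells, at 34.9, 28.9 and 24.6 CPM in DMSO and 181, 192 and 197 with IFNg (2.68, SE 0.13). Nod1, a sensor of bacterial cell walls, rose by 2.64 (SE 0.15), Parp3 by 3.89 (SE 0.21), Xdh (xanthine dehydrogenase) by 1.54 (SE 0.10) and Lap3 (a leucine aminopeptidase) by 1.14 (SE 0.08). These genes, and Batf2 above, were picked after their values were seen. Rtl1 and Serpina3f had no count in DMSO and were at least 42.6-fold and 29.4-fold higher.

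In the lists of neuroendocrine state and growth 1 gene rose and 2 fell, beside 1.95% higher and 0.315% lower among all genes tested. Of 25 tested neuroendocrine genes 1 rose and 1 fell, with a median of -0.07. Chgb, a granin of secretory granules, was at 360, 277 and 289 CPM in DMSO and 532, 482 and 414 with IFNg (0.62, SE 0.12, adjusted p = 0.00496). Its call was lost without DMSO library 2 (adjusted p = 0.056). Chga, the related granin, was at 251, 303 and 318 CPM and 340, 446 and 404 with IFNg (0.45, SE 0.13, adjusted p = 0.0874), and was called by DESeq2, voom, without a filter, in a fit of the 6 libraries, without IFNg library 1 and with the block (adjusted p = 0.000421 over 10 libraries and 7.76e-06 over 6). Pcsk2, a prohormone convertase, fell by 0.36 (SE 0.08, adjusted p = 0.0263), a call lost without DMSO library 2 or 3 or IFNg library 2 or 3 (adjusted p = 0.0538 to 0.169).

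Of 33 tested cell cycle genes none was called, with a median of -0.04 and log2 changes from -0.26 to 0.10. Mki67 was at 989 ± 107 CPM in DMSO and 942 ± 15.9 with IFNg (-0.07, SE 0.08, adjusted p = 0.927). No member was called among 7 CDK inhibitors, 11 MYC family genes, 20 sterol genes and 14 ER stress genes, whose medians were 0.01, 0.03, -0.01 and -0.10. In a blocked fit of the 6 libraries 1 MYC family gene and 1 ER stress gene were lower, and without a filter 1 ER stress gene was. Of 19 Notch pathway genes the ligand Jag1 fell, from 30.7 ± 4.28 to 18.8 ± 1.92 CPM, by 0.71 (SE 0.13, adjusted p = 0.00378).

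The 48 genes that fell were modest in change and moderate to high in level: 47 of them had at least 10 CPM in DMSO, and all 48 were protein coding. Galnt14, a glycosyltransferase of O-linked sugars, fell by 1.32 (SE 0.22, adjusted p = 0.00114), from 17.7, 15.1 and 15.8 CPM to 4.45, 6.34 and 8.77. Epha3, an ephrin receptor, fell by 1.12 (SE 0.21, adjusted p = 0.00372), from 13.5, 15.6 and 17.8 CPM to 5.68, 8.08 and 7.78. Sord, the sorbitol dehydrogenase, had the lowest p of the falls and went from 67.2, 56.6 and 65.1 CPM to 39.6, 34.2 and 35.6 (-0.79, SE 0.10, adjusted p = 7.67e-05). In each of these the highest IFNg library stood below the lowest DMSO library. Vwc2 (a BMP antagonist), Gprin3 and Spock3 (a proteoglycan) fell by 0.99, 0.93 and 0.86 (SE 0.18, 0.18 and 0.15). These 6 kept their calls whichever library was left out.

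Other falls passed the test less securely: leaving out 1 library ended the call, while the log2 change stayed negative. Hapln1, a matrix link protein, had the largest fall of the called genes and lies below the level at which genes were chosen for naming, a log2 CPM averaging 2. It went from 6.82, 5.54 and 4.75 CPM to 2.46, 1.74 and 0.993 (-1.71, SE 0.34, adjusted p = 0.00688), and without IFNg library 3 its change was -1.44 (adjusted p = 0.0529). Cntnap4, a cell adhesion protein of neurons, fell by 1.14 (SE 0.24, adjusted p = 0.0108) but was not called without IFNg library 2 or 3 (adjusted p = 0.0539 and 0.0635). Cacna1e, a calcium channel subunit, fell from 15.9 ± 0.383 to 7.94 ± 1.92 CPM (adjusted p = 0.0103) and was not called without DMSO library 2 or IFNg library 3 (adjusted p = 0.0532 and 0.0845). Ttyh2 fell by 0.96, Erbb4 (a neuregulin receptor) by 0.93, Nrxn3 (a neurexin of synapses) by 0.81 and Lgr5 (an R-spondin receptor) by 0.75. Of these Nrxn3 lost its call only without DMSO library 2 (adjusted p = 0.054). Ttyh2 lost it without DMSO library 1 or 2 or IFNg library 2 or 3 (0.0541 to 0.137), Erbb4 without DMSO library 3 or IFNg library 1 or 3 (0.0904 to 0.15), and Lgr5 without DMSO library 2 or IFNg library 1 or 3 (0.0678 to 0.152).

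**Figure D4:**
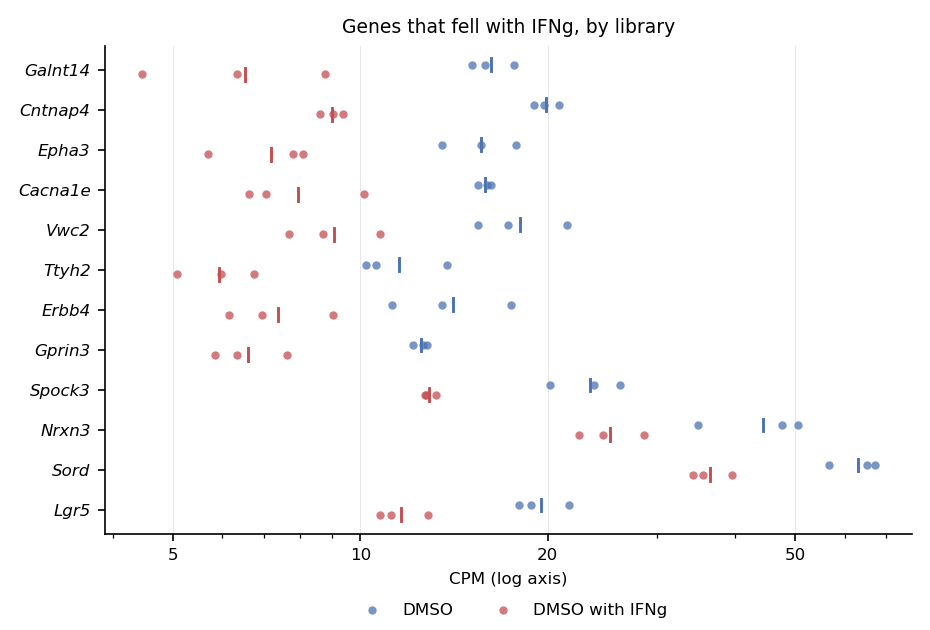
Levels in each library of the 12 genes with the largest falls at a log2 CPM averaging 2 or more, which leaves out Hapln1. Points are CPM on a log axis, DMSO in blue and DMSO with IFNg in red, and short bars are means of 3 libraries; for each gene all red points lie to the left of all blue points, and the shifts are between 0.75 and 1.32 on the log2 scale.

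Some of the called genes lie near each other. Runs were built from called genes, and each starts and ends at a called gene. The share of called genes inside a run is therefore partly fixed and is a description. How many runs other sets of genes would form was not tested. Called genes whose starts were within 100 kb of the next formed 16 runs of 3 or more, which held 72 of the 345 called genes (20.9%), 71 of them higher (positions on mm10 from GENCODE M21). The run with the most called genes, at chr17:34119541-34316674, holds 10 called genes of 11 tested: H2-DMa, H2-DMb1, Psmb9, Tap1, Psmb8, Tap2, Gm15821, H2-Ab1, H2-Aa and H2-Eb1, so genes for class I peptide supply and for class II chains rose within 197 kb. At chr11:48861968-49135387 all 9 tested genes rose, among them Irgm1, Tgtp1, Tgtp2 and Ifi47. The Gbp genes filled 2 runs, with 6 of 6 tested genes on chromosome 5 and 4 of 4 on chromosome 3, and all 7 tested genes of an Apol run on chromosome 15 rose. Neighbors of other roles rose beside known targets. Tvp23a lies beside Ciita and Dexi overlaps it on the other strand, so that reads of Dexi and Ciita cannot be told apart in the shared part. Tvp23a and Dexi rose by 1.98 and 1.62 (SE 0.11 and 0.13), and Psme1, Psme2, Rnf31 and Irf9 rose within 31.9 kb on chromosome 14. Plgrkt, beside Cd274, rose by 0.84 (SE 0.17), a call lost without DMSO library 3 or IFNg library 2 (adjusted p = 0.0557 and 0.0591). Dtx3l and Parp9, beside Parp14, rose by 1.84 and 2.52 (SE 0.11 and 0.15). In the run of B2m, Trim69 and Sord on chromosome 2, Sord fell. Without strand, reads that run past a gene's end cannot be told from its neighbor's.

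The response was compared with that of cells kept in BOM, where IFNg changed 314 genes, 264 of them higher (1.73%) and 50 lower (0.328%). These 4 libraries are none of the 6, but both contrasts come from the same fit. Of the 297 genes that rose in DMSO cells, 213 were also called higher in BOM cells, which is 71.7% of the 297 and 80.7% of the 264. Of the 48 genes that fell in DMSO cells, 4 were also called lower in BOM cells. A call in 1 group alone does not show a difference. The difference of the responses itself was called for 0 of 15230 genes by edgeR, with 725 genes at an unadjusted p under 0.05, for 0 by voom and for 13 by DESeq2. It was called for 10 genes with the replicate block and for 67 without a filter.

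Values of the same gene in both settings are given side by side. These genes were not chosen by a set rule, so they do not show which direction of difference prevailed. H2-K1 rose by 5.23 in DMSO cells and 5.19 in BOM cells (SE 0.13 and 0.15), and Cd274 by 5.40 and 5.60 (SE 0.28 and 0.28). Cd74 rose by 5.30 and 8.37 (SE 0.23 and 0.30), and the difference of 3.07 had an adjusted p of 0.150. Irf7 rose by 1.09 and 3.14 (SE 0.27 and 0.31), with a difference of 2.06 (adjusted p = 0.230), and Stat2 by 1.97 and 2.84 (SE 0.10 and 0.12), with a difference of 0.87 (adjusted p = 0.131). Tap1 rose by 9.07 and 7.94 (SE 0.15 and 0.16), with a difference of -1.13 (SE 0.36, adjusted p = 0.881). Tns3, outside the lists, rose by 1.05 and 0.25 (SE 0.10 and 0.11), with a difference of -0.80 (adjusted p = 0.131). None of these differences passed the threshold.

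**Figure D5:**
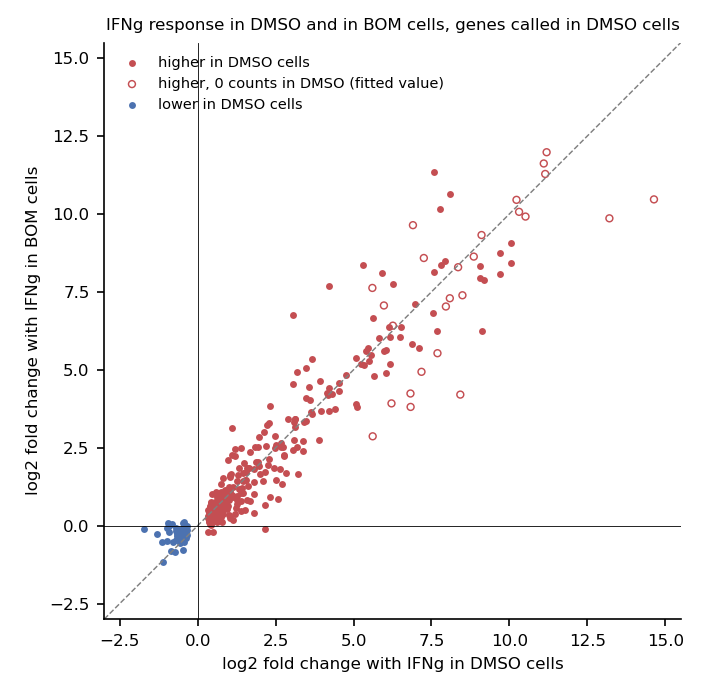
Log2 fold change with IFNg in BOM cells (vertical) against that in DMSO cells (horizontal) for the 345 genes called in DMSO cells. Red points rose and blue points fell in DMSO cells, open circles had 0 counts in DMSO and carry fitted values, and the dashed line marks equal change; 294 of the 297 red symbols lie above 0 on the vertical axis and 42 of the 48 blue points lie below it.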

How the data were processed

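RNA of cultured cells was sequenced, and the authors deposited whole-number counts per gene for 10 libraries of the 10 d experiment. STAR 2.7, featureCounts, Subread 2.0 and the build mm10 are named, with no settings, per the submitters' processing notes, and the libraries were made with a kit that does not mark strand, per the labels' protocols. Genes were filtered with filterByExpr and tested in R 4.3.3 with the quasi-likelihood test of edgeR 4.0.16 on the deposited counts, with TMM scaling and 1 dispersion trend over 4 groups and 10 libraries (6 residual degrees of freedom). P-values were adjusted by Benjamini-Hochberg over all 15230 genes. Fitted changes used the default prior count of edgeR, and mean log2 CPM values a prior count of 2. RPKM used the deposited gene lengths, which were not checked against the transcripts present, so RPKM of different genes compare only roughly. The members and the gene lists were chosen with earlier results of these data known. Named genes were the 12 largest rises and falls among calls without overlap of the groups, at a log2 CPM averaging 2 or more, list members, the genes at 0 counts in DMSO with the highest levels, and genes in runs; not all of them are printed, and some list members are not reported here.

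The same replicate number was carried by libraries of each group. Deviations from the group means, over 12188 genes, correlated at 0.48, 0.148 and 0.125 between DMSO and IFNg libraries of number 1, 2 and 3, so blocked values are given where they change a call. DMSO library 3 correlated more with IFNg library 2 (0.272), and DMSO library 2 with IFNg library 3 (0.169). Libraries of a group differed by more than sampling noise. Of the gene identifiers 98.2% were in the reference list. On counts simulated for this comparison, with 14873 genes in the step, 85 of 100 genes changed 2-fold and 99 of 100 changed 4-fold were called, beside 15 false calls. The changed genes were drawn only from those with an average log2 CPM of at least 2, so these shares do not cover genes at lower levels. Simulated libraries of the same number shared no deviation. Alternatives were other scalings, filters, tools (limma 3.58.1 with voom, DESeq2 1.42.0), the replicate block and leaving out single libraries.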

Additional observations from a re-analysis of the deposited data

How the results depend on the processing

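Without a filter on low counts 548 genes were called, 410 of them higher, 138 lower and 21 at least 2-fold lower, in place of 345, 297, 48 and 4. The limma voom fit called 356 higher, 93 lower and 10 at least 2-fold lower. The replicate block over 10 libraries called 361 higher, 117 lower and 16 at least 2-fold lower, and that over the 6 libraries compared called 638 genes, 436 of them higher, 202 lower and 18 at least 2-fold lower. The cause of these changes was not tested. The share of called genes that were higher was 86.1%, and 75.5% and 68.3% with the block and 74.8% without a filter. All 345 calls were also made with the block over 10 libraries, and 330 of them over the 6 libraries. Leaving out 1 library of the 10 at a time gave 218 to 296 higher genes, 22 to 81 lower genes and 4 to 12 at least 2-fold lower. It gave 243 to 371 called genes. The test of the difference between the responses of BOM and DMSO cells called 0 to 1 gene when 1 library was left out, 67 without a filter, 13 by DESeq2 and 10 with the replicate block. 

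Named genes near 0 changed sign in some fits and were called in none of them. By voom, Psmb6 was at -0.011 and H2-T22 at 0.022. Leaving out 1 library at a time gave Gm26917 values from -0.17 to 0.059, H2-T22 values from -0.39 to 0.010, Ifit3 values from -1.18 to 0.69, Insm1 values from -0.18 to 0.058, Mki67 values from -0.12 to 0.025, Psmb5 values from -0.14 to 0.031 and Psmb6 values from -0.037 to 0.077 on the log2 scale. With 150 bases before the start in place of the whole window, 4.09% of windows held a GAS match, 1.59% an ISRE match and 24.5% a CCAAT match. Depth limits the genes near 0 in DMSO: 3 counts over that group correspond to 0.159 CPM.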
